A study of Mus musculus with 24 samples.

Results

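Oxidative phosphorylation is carried out by complexes I to V of the inner mitochondrial membrane, and most of their subunits are encoded in the nucleus. The genes described here were taken from the mouse count table by symbol. A gene entered when its symbol began with Nduf, Sdha, Sdhb, Sdhc, Sdhd, Uqcr, Atp5 or Cox4 to Cox8, did not end in a -ps form, and had a count in 12 or more of the 24 libraries. Of 111 gene IDs with such a symbol, 9 were -ps symbols, 5 were counted in fewer than 12 libraries (Cox8c, Cox7b2, Cox6c2, Ndufa11b and a second ID of Atp5o), and 97 remained. These are 97 of the 17913 genes tested and of the 56205 gene IDs in the table. They comprise 38 genes of complex I, 4 of complex II, 8 of complex III, 18 of complex IV (with Ndufa4, Ndufa4l2 and Cox7a2l placed there) and 17 of complex V, together 85 subunit genes, and 12 assembly factors, 8 for complex I (Ndufaf genes) and 4 for complex II (Sdhaf genes). The label "subunits" is therefore used for 85 of the 97, by symbol. Among these, Ndufb4c and Ndufs6b are listed as processed pseudogenes by the annotation, and RefSeq names Atp5s as Dmac2l. Genes of the respiratory chain whose symbols begin otherwise, such as Cyc1 and Usmg5, fall outside the rule and are given separately.

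The samples were whole livers of C57BL/6J mice of both sexes, kept for 20 weeks on a high-fat diet called FFD (12 libraries) or on its control diet (12 libraries). The methods of the study describe the high-fat diet as one with palm oil, fructose and cholesterol, and the labels give neither the age nor the sex of the animal behind a library. RNA was poly(A) selected, and the table holds whole-number counts per Ensembl gene, with 14468418 to 22112552 counts per library. Levels are given as CPM, that is counts divided by a library total that edgeR's TMM method scaled and expressed on the usual CPM scale, and fold changes are log2 of FFD over control from a quasi-likelihood test in edgeR, with p-values adjusted by Benjamini-Hochberg across the 17913 genes.

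Complexes I to IV pass electrons from NADH and succinate to oxygen and build a proton gradient, and complex V, the ATP synthase, uses that gradient to make ATP. Several subunits of complex IV have a second form encoded by a paralog that is used mainly in muscle, lung or testis. In the liver, hepatocytes carry most of the mitochondria, and their ATP supports gluconeogenesis, urea synthesis and lipid handling.

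Libraries did not all behave alike, and this bears on every value below. Control replicate 10 had the fewest counts (14468418) and the lowest TMM factor (0.679, against 0.851 to 1.01 in the other controls). It had 3.65% of its counts on the mitochondrial chromosome, against 6.04% to 8.68% in the other libraries, and 2.04% on the 97 genes, against at most 1.38% in any other library. Control replicate 4 had the second highest share on the 97 genes (1.38%), with a total and a TMM factor inside the range of the other controls. The counts of calls by complex and by list are therefore given with and without control replicate 10. Replicates 1 to 6 of both diets had Xist above 1000 counts, and replicates 7 to 12 had it below. Ddx3y, a gene of the Y chromosome, had 0 counts in every library of the first set and 448 to 1016 in the second. Values within these sets, which are not conditions named by the labels, are given where they differ. No pair of libraries of a diet agreed within sampling noise (lowest chi-square per degree of freedom 10.1 in FFD and 18.0 in control). The design text counts the libraries as separate animals of both sexes, and batches of mice or libraries are not given in the sources used here. The livers were bulk tissue, so fewer hepatocytes and less RNA per hepatocyte cannot be told apart.

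Most of the genes were lower on FFD, by a modest amount. With all 24 libraries, 88 of the 97 had a log2 fold change below 0, as had 52.8% of all genes. The median of the 97 was -0.42, against -0.03 over all genes tested. At an adjusted p up to 0.05, 56 were lower and 3 were higher. Of all 17913 genes, 18.9% were lower and 20.7% higher by the same rule. At the thresholds of the study (an adjusted p up to 0.01 with a log2 fold change beyond 0.5 in size), 9 were lower and 1 was higher, against 4.99% and 13.2% of all genes. Without control replicate 10, 85 of the 97 had a log2 fold change below 0 (51.2% of all genes), but the median was -0.20. In that fit, 49 were lower and 3 higher at an adjusted p up to 0.05 (20.0% and 21.5% of all genes). At the thresholds of the study, 3 were lower and 1 higher there (5.1% and 13.2% of all genes). All 49 were among the 56. Without control replicates 4 and 10 the median was -0.16, with 45 lower and 3 higher at an adjusted p up to 0.05 (19.9% and 21.7% of all genes) and 1 lower and 1 higher at the thresholds of the study (5.04% and 12.9%).

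The size of the change, the number of calls and the sign of single genes also depend on how libraries are scaled. With library totals in place of TMM, the median log2 fold change of all genes was 0.26 and that of the 97 genes was -0.10, with 61 below 0, 3 lower and 10 higher at an adjusted p up to 0.05 (4.16% and 37.8% of all genes), and 0 lower and 3 higher at the thresholds of the study (1.26% and 21.4%). Relative to the median of all genes, the 97 genes lay at -0.39 with TMM, at -0.36 with library totals and at -0.19 with TMM and without control replicate 10. The 3 genes lower under library totals were Sdhd, Ndufaf4 and Ndufaf6. These same 3 genes were lower at an adjusted p up to 0.05 in each of 13 fits that differed in scaling, test or set of libraries. The share of all genes lower in every one of the 13 was not counted. With the size factors of DESeq2, 17.7% of all genes were lower at an adjusted p up to 0.05. The share was 19.2% with DESeq2 itself, 18.0% with limma-voom and 17.1% with the replicate number as a block. Among the 97, limma-voom gave 44 lower and 1 higher (20.8% of all genes higher), or 5 and 1 at the thresholds of the study (4.9% and 13.0%). The block gave 40 lower and 1 higher (19.3% of all genes higher), or 5 and 1 (4.71% and 11.5%).

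**Figure D1:**
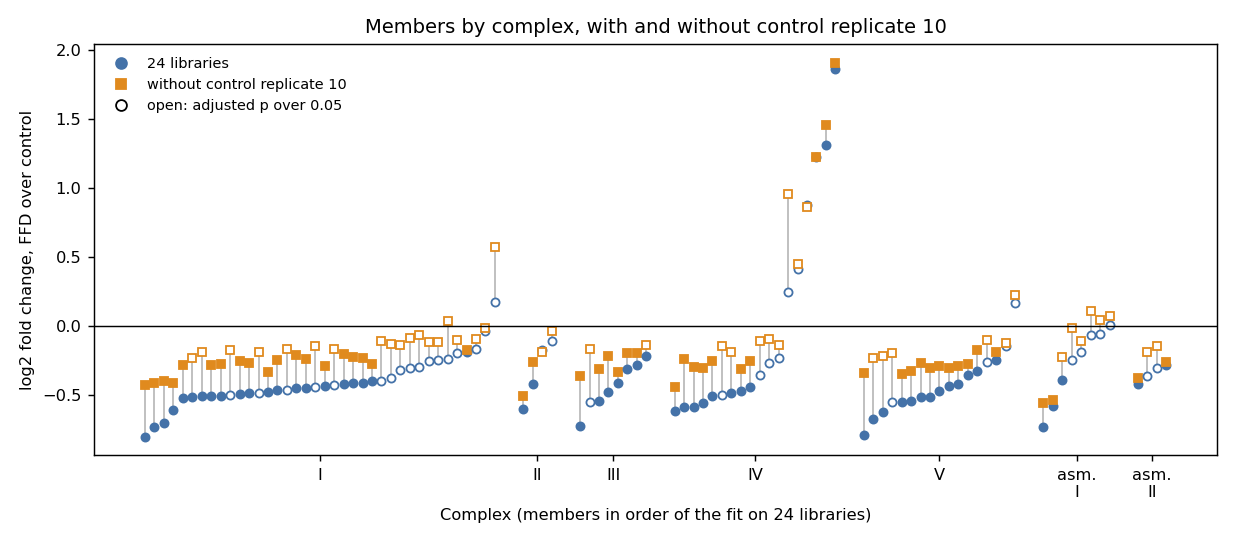
Log2 fold change (FFD over control, vertical axis) of each of the 97 genes, grouped by complex on the horizontal axis with the assembly factors of complexes I and II (asm.) at the right. Circles are the fit on 24 libraries and squares the fit without control replicate 10, filled where the adjusted p was up to 0.05. Most squares lie nearer to 0 than their circles, and the genes with positive filled marks are in complex IV.

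Complexes I to V had median log2 fold changes of -0.44, -0.30, -0.45, -0.40 and -0.47 with all 24 libraries. Without control replicate 10 these were -0.20, -0.22, -0.21, -0.14 and -0.27. No complex stood apart from the others by a test, since none was made between complexes. At an adjusted p up to 0.05, 21 of 38 genes of complex I, 2 of 4 of complex II, 7 of 8 of complex III, 8 of 18 of complex IV and 13 of 17 of complex V were lower, and the only genes higher were 3 of complex IV (18.9% of all genes were lower and 20.7% higher). Without control replicate 10, the numbers lower were 19, 2, 6, 7 and 11, and the 3 higher were the same genes (20.0% and 21.5% of all genes).

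Summed over its subunits, complex I had 2057 to 2610 CPM in the FFD libraries (median 2394) and 2401 to 7733 CPM in the control libraries (median 2717). Complex V, the most abundant in summed transcripts, had 3441 to 4404 CPM in FFD (median 3894) and 3863 to 9327 CPM in control (median 4478). The diets overlapped in both sums, and the highest control value was control replicate 10 each time. The 85 subunit genes together took 8917 to 11370 CPM in FFD, 10090 to 14800 CPM in 11 controls and 29760 CPM in control replicate 10. Within the 12 libraries with Xist below 1000 counts, the sum did not overlap between the diets, at 8917 to 10650 CPM in FFD against 11200 to 12700 CPM in 5 controls, with replicate 10 higher still. In the libraries with Xist above 1000 counts it did overlap, at 9719 to 11370 CPM against 10090 to 14800 CPM. These sums turn with the scaling. Per unscaled library total, the FFD libraries were at 9718 to 12040 CPM (median 11580), above 11 controls at 9816 to 13610 CPM (median 10800) in the median, and control replicate 10 was at 20200 CPM. In the libraries with Xist below 1000 counts the separation then reversed, with all 6 FFD libraries (11100 to 12040 CPM) above the 5 controls (9880 to 10900 CPM). For single genes, no gene among the 97 had every FFD library below every control library, or every one above, with or without control replicate 10. Among all genes, 0.402% lay entirely below and 1.48% entirely above with 24 libraries (0.642% and 1.56% without control replicate 10).

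**Figure D2:**
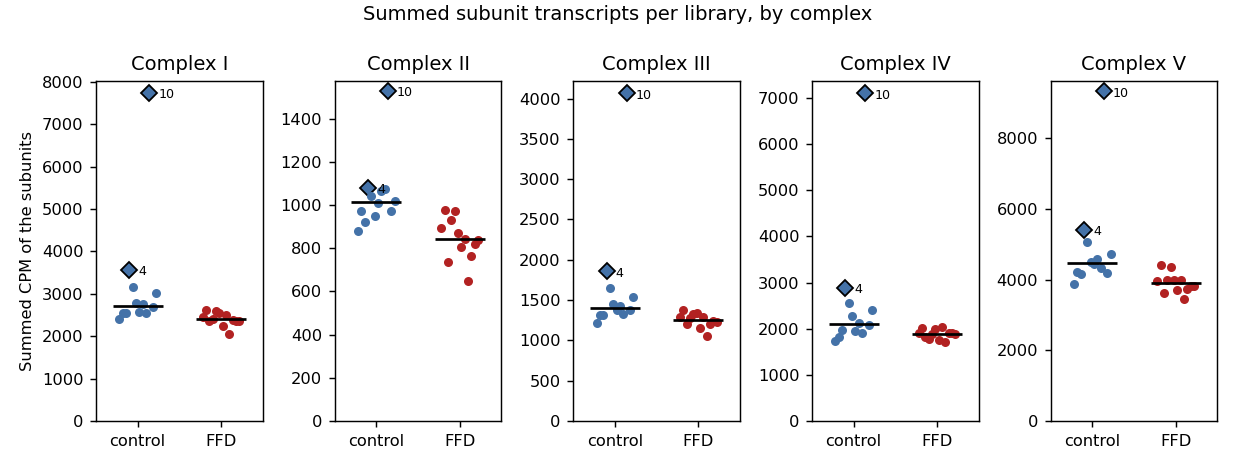
Summed CPM of the subunit genes of each complex (vertical axis, from 0, with its own scale in each panel) in every library, with control in blue and FFD in red and a line at the median of the group. Diamonds mark control replicates 4 and 10, and replicate 10 is the highest point in all 5 panels (29760 CPM over the 5 complexes, against 10090 to 14800 CPM in the other controls).

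In complex I, the 2 core subunits described in full had small differences between the diets. Ndufs1, the iron-sulphur subunit of the electron input module, had 60.4 to 94.9 CPM in FFD (median 84.8) and 80.8 to 105 CPM in control (median 92.9). The diets overlapped between 80.8 and 94.9 CPM, and the log2 fold change was -0.19 (SE 0.07, adjusted p = 0.0301, quasi-likelihood test of edgeR). Leaving out FFD replicate 3, 7, 9, 10 or 11 or control replicate 9 ended that call (-0.18 to -0.14, adjusted p from 0.0509 to 0.0708 in edgeR). Ndufv1, which binds NADH and the flavin cofactor, had 121 to 159 CPM in FFD (median 149.9) and 139 to 289 CPM in control (median 159.9), a log2 fold change of -0.20 (SE 0.09) with an adjusted p of 0.0954 in the same edgeR test, and -0.10 without control replicate 10. Ndufa10 had the fold change nearest to 0 among the abundant genes of this complex, at -0.04 (SE 0.07).

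The 4 genes of complex I called at the thresholds of the study were all accessory subunits of its membrane arm. Ndufb9 had 97.1 to 137 CPM in FFD (median 109) and 111 to 694 CPM in control (median 140). All 12 FFD libraries lay below the control median, 6 of them below the lowest control, and the value of 694 was control replicate 10, the next highest control being at 241. The log2 fold change of Ndufb9 was -0.80 (SE 0.23, adjusted p = 0.00779, quasi-likelihood test of edgeR), and -0.43 (SE 0.10, adjusted p = 0.00209, same test in edgeR) without control replicate 10, which took it under the fold threshold. Ndufb11 (78.4 to 110 CPM in FFD and 105 to 496 CPM in control), Ndufb10 (36.9 to 51.2 and 45.5 to 228 CPM) and Ndufb5 (53.6 to 69.6 and 64.5 to 219.5 CPM) followed the same course, with log2 fold changes of -0.73, -0.71 and -0.61 that became -0.41, -0.40 and -0.42 without that library. Their adjusted p-values there were 0.000502, 0.000619 and 0.000287 in the same edgeR test. Ndufs6b, a scarce copy of Ndufs6 that the annotation lists as a processed pseudogene, had 0 to 4 counts per library in either diet, and no change could be measured at that depth. Counts of Ndufb4 and Ndufb4c, and of Ndufs6 and Ndufs6b, are uncertain because each pair shares sequence and the counting of reads with several matches is not given in the sources used here.

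In complex II, the 4 subunits did not change alike. Sdhd, which anchors the complex in the membrane together with Sdhc, had 122 to 192 CPM in FFD (median 157) and 187 to 419 CPM in control (median 226). The groups overlapped in few libraries, and 10 of the 12 FFD libraries lay below the lowest control. The level was 158 ± 21.4 CPM (SD, n = 12) in FFD and 241 ± 65.5 (SD, n = 12) in control, or 225 ± 35.7 (SD, n = 11) without control replicate 10. Sdhd had a log2 fold change of -0.61 (SE 0.12, adjusted p = 0.000194, quasi-likelihood test of edgeR) with all libraries, -0.51 (adjusted p = 7.47e-05, same test in edgeR) without control replicate 10 and -0.30 (adjusted p = 0.00514, same test in edgeR) with library totals. It was also lower where Xist was above 1000 counts, at -0.45 (adjusted p = 0.0142, same test in edgeR).

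Sdhb, the iron-sulphur subunit, had 142 to 210 CPM in FFD (median 166) and 171 to 504 CPM in control (median 206), with a log2 fold change of -0.42 (SE 0.14, adjusted p = 0.0161, same test in edgeR), and -0.26 (adjusted p = 0.0101) without control replicate 10. Sdha, the flavoprotein that oxidises succinate, had 275 to 438 CPM in FFD (median 384) and 365 to 531 CPM in control (median 417), a log2 fold change of -0.18 (SE 0.09, adjusted p = 0.1, same test in edgeR). Sdhc had 108 to 148 CPM in FFD (median 138) and 121 to 219 CPM in control (median 141), a log2 fold change of -0.11 (SE 0.08, adjusted p = 0.301, same test in edgeR), and -0.040 without control replicate 10. The diets overlapped in all 3. Under library totals the log2 fold changes of Sdha and Sdhc were 0.10 and 0.19.

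In complex III, every one of the 8 genes had a negative fold change, with and without control replicate 10. Uqcrh, the hinge protein beside cytochrome c1, had 79.0 to 105 CPM in FFD (median 88.5) and 86.7 to 520 CPM in control (median 109), and a log2 fold change of -0.73 (SE 0.23, adjusted p = 0.0134, quasi-likelihood test of edgeR). Its highest control was again replicate 10, and without it the log2 fold change was -0.36 (adjusted p = 0.00736, same test in edgeR). Uqcrfs1, the Rieske iron-sulphur protein, had 175 to 234.5 CPM in FFD (median 205) and 204 to 470 CPM in control (median 230) with a log2 fold change of -0.31 (SE 0.11, adjusted p = 0.0263, same test in edgeR). Uqcrc1, a core protein of the matrix side, had 228 to 287 CPM in FFD (median 263) and 245 to 480 CPM in control (median 290), the value nearest to 0 of the complex with all libraries at -0.22 (SE 0.09, adjusted p = 0.0445, same test in edgeR). That call was lost when any one of 17 libraries was left out, and without control replicate 10 Uqcrc1 was at -0.14 (adjusted p = 0.0543, same test in edgeR). Uqcrfs1 was at -0.20 without that library (adjusted p = 0.0272, same test in edgeR) and lost its call without FFD replicate 7, 9 or 10 (adjusted p from 0.0511 to 0.0562 in edgeR). Both Uqcrfs1 and Uqcrc1 became positive under library totals, at 0.002 for Uqcrfs1 and 0.09 for Uqcrc1. Uqcrq was the most abundant of the 97 genes per length of transcript, at 690 CPM per kb in FFD and 776 CPM per kb in 11 controls.

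Complex V held the most abundant genes in CPM. Atp5b, the catalytic beta subunit, had 849 to 1230 CPM in FFD (median 1109) and 1067 to 1415 CPM in control (median 1213). Atp5a1, the alpha subunit, had 764 to 1091 CPM in FFD (median 917) and 944 to 1601 CPM in control (median 1086). Both overlapped between the diets, with log2 fold changes of -0.14 (SE 0.07, adjusted p = 0.109) for Atp5b and -0.25 (SE 0.08, adjusted p = 0.0192) for Atp5a1 in edgeR's quasi-likelihood test. Atp5k, the small subunit e of the membrane sector, had 21.4 to 32.2 CPM in FFD (median 27.7) and 25.6 to 190 CPM in control (median 34.3). Its log2 fold change of -0.80 (SE 0.26, adjusted p = 0.0166, same test in edgeR) was the lowest of complex V with all libraries and became -0.34 without control replicate 10 (adjusted p = 0.00854). It missed the threshold with the block (adjusted p = 0.0507) and in limma-voom (adjusted p = 0.0518). Atp5g3, one of the 3 genes that encode the same mature subunit c of the rotor, had 252 to 326 CPM in FFD (median 291) and 285 to 1032 CPM in control (median 356). It was the gene of complex V called at the thresholds of the study, at -0.51 (SE 0.15, adjusted p = 0.009998, same test in edgeR), just inside both, and stood at -0.31 without control replicate 10. Atp5s, coupling factor B, was the gene of complex V with a positive value, at 0.17 (SE 0.11, adjusted p = 0.258, same test in edgeR), with 4.78 to 6.82 CPM in FFD and 3.46 to 6.82 CPM in control.

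In complex IV, 12 abundant genes and 6 scarce paralogs went different ways. All 12 abundant genes had negative values, with a median of -0.50 with all 24 libraries and -0.25 without control replicate 10. Of these, 8 (7 without that library) were lower at an adjusted p up to 0.05 (18.9% and 20.0% of all genes). Cox6b1, among the 8, lost its call when any 1 of 16 libraries was left out. Ndufa4 lost its call without FFD replicate 9 (adjusted p = 0.0521, quasi-likelihood test of edgeR). Cox7b, a small accessory subunit, had 64.8 to 92.8 CPM in FFD (median 79.7) and 84.0 to 281.5 CPM in control (median 101). Of the 12 FFD libraries, 9 lay below the lowest control. The log2 fold change of Cox7b was -0.62 (SE 0.16, adjusted p = 0.00275, quasi-likelihood test of edgeR), and -0.44 (adjusted p = 0.00125, same test in edgeR) without control replicate 10. Cox5a, a subunit on the matrix side, had 120 to 149.5 CPM in FFD (median 139) and 120 to 378 CPM in control (median 152). The diets overlapped, with the control median above the highest FFD library. The log2 fold change of Cox5a was -0.27 (SE 0.13, adjusted p = 0.111, same test in edgeR), and -0.096 without control replicate 10. Cox4i1, the abundant form of subunit 4, had 310 to 365 CPM in FFD and 293 to 1639 CPM in control, the highest being control replicate 10. It was not called with all 24 libraries and stood at -0.14 without control replicate 10. Without control replicate 1 it passed (-0.55, adjusted p = 0.0474, same test in edgeR). Cox7a2l, which takes part in the assembly of supercomplexes, was lower in both fits, at -0.47 and -0.32, and was among 7 genes lower where Xist was above 1000 counts.

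The 6 scarce paralogs of complex IV were Cox4i2, Cox6a2, Cox6b2, Cox7a1, Cox8b and Ndufa4l2, all with positive values. Cox4i2, a form of subunit 4 known from lung and from low oxygen, had 1 to 14 counts per FFD library (median 4) and 0 to 3 counts per control library (median 1). In 7 of the 12 FFD libraries its ratio to Cox4i1 was above every control. Its log2 fold change was 1.86 (SE 0.47, adjusted p = 0.00264, quasi-likelihood test of edgeR) with all libraries, 1.91 without control replicate 10 and 2.17 with library totals, and it was higher at the thresholds of the study in each. Where Xist was above 1000 counts, Cox4i2 had 1 to 4 counts per FFD library and 0 to 2 per control library. It was not called higher there, with or without a fold threshold. Where Xist was below 1000 counts, it had 3 to 14 counts in FFD and 0 to 3 in control, and was called higher. A test of the difference between the Xist sets, given below, did not pass for Cox4i2. The default filter of edgeR and a stricter one asking for 10 counts everywhere each removed it. Cox6a2, the muscle form of subunit 6a, had 0 to 8 counts in FFD (median 4) and 0 to 3 in control (median 1), with a log2 fold change of 1.31 (SE 0.44, adjusted p = 0.0189, same test in edgeR). It did not pass with the replicate number as a block (1.23, adjusted p = 0.0715) or in limma-voom (0.94, adjusted p = 0.073). At these counts the size of each change carries a large counting error.

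Ndufa4l2, a relative of Ndufa4 known to rise at low oxygen, had 36 to 646 counts in FFD (median 63.5) and 24 to 59 in control (median 51). A single library, FFD replicate 3 with 34.4 CPM, stood far above the other 11 FFD libraries, which reached at most 5.71 CPM. The log2 fold change of 1.22 (SE 0.42, adjusted p = 0.0217, quasi-likelihood test of edgeR) fell to 0.36 (adjusted p = 0.151, same test in edgeR) without it, and did not pass with the block (adjusted p = 0.132) or in limma-voom (adjusted p = 0.161). Cox6b2, the testis form of subunit 6b, was highest in the same FFD library and had a log2 fold change of 0.87 (SE 0.40, adjusted p = 0.0854, same test in edgeR). Cox7a1, the muscle form of subunit 7a, had 10 to 37 counts in FFD and 2 to 23 in control, at 0.41 (SE 0.26, adjusted p = 0.215, same test in edgeR). Cox8b, the muscle form of subunit 8, had 0 to 5 counts in any library, at 0.25 (SE 0.73, adjusted p = 0.813, same test in edgeR). Of 6 striated muscle markers (Ckm, Acta1, Myh1, Myh4, Tnnt3, Mylpf), only Mylpf had enough counts to be tested, at 0.31 to 1.08 CPM in FFD and 0.115 to 1.48 CPM in control, and its log2 fold change was -0.07.

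The ratio of a paralog to its partner within a library does not depend on how libraries are scaled. Of 8 pairs compared with a two-sided permutation test (100000 resamples, Benjamini-Hochberg over the 8), 5 differed between the diets. Cox4i2 over Cox4i1 was higher in FFD by 1.85 on the log2 scale (-10.52 ± 1.0 against -12.37 ± 1.09, SD, n = 12 each, permutation test adjusted p = 0.0018). Cox6a2 over Cox6a1 was higher by 1.15 (permutation test adjusted p = 0.0174), Cox7a1 over Cox7a2 by 0.86 and Ndufa4l2 over Ndufa4 by 1.01 (both permutation test adjusted p = 0.018). In each of these pairs the abundant partner had a negative fold change, so a rise of the ratio is not by itself a rise of the paralog. Among the subunit c genes, Atp5g2 over Atp5g3 was higher by 0.22 (-1.29 ± 0.10 against -1.51 ± 0.16, SD, n = 12 each, permutation test adjusted p = 0.0018), with all 12 FFD libraries above the control median. Atp5g1 over Atp5g3 differed by -0.06 (permutation test adjusted p = 0.478), less than the spread within a diet. The same 5 pairs differed without control replicate 10, with adjusted p from 0.00332 to 0.0418 in the same permutation test. Cox6b2 over Cox6b1 (0.75, permutation test adjusted p = 0.101) and Cox8b over Cox8a (0.38, permutation test adjusted p = 0.478) did not pass. Reads of the 3 subunit c genes can share sequence, and how they were divided is not given in the sources used here.

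**Figure D3:**
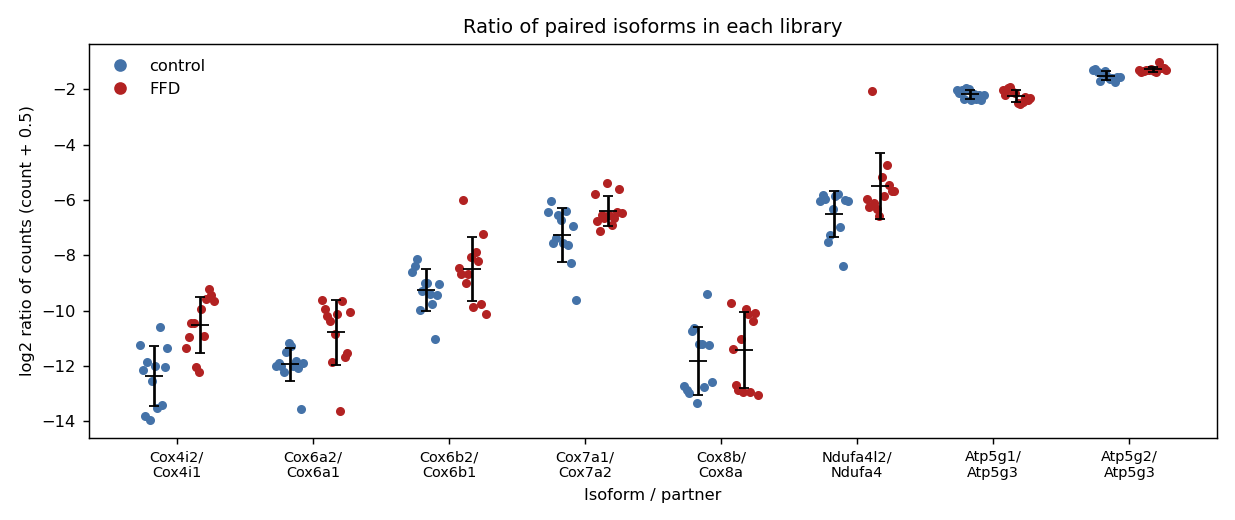
Log2 ratio of counts (each plus 0.5) of a paralog to its partner in every library (vertical axis) for 8 pairs (horizontal axis), control in blue and FFD in red, with mean and SD bars (n = 12 each). The FFD points of Cox4i2 over Cox4i1 centre at -10.52 and the control points at -12.37, and the Ndufa4l2 over Ndufa4 panel holds the single high point of FFD replicate 3 at -2.07.

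The 12 assembly factors were not uniformly lower. Ndufaf4, a chaperone of complex I assembly, had 17.9 to 27.8 CPM in FFD (median 24.6) and 25.4 to 47.3 CPM in control (median 34.7), and 8 of the 12 FFD libraries lay below the lowest control. The log2 fold change of Ndufaf4 was -0.58 (SE 0.09, adjusted p = 2.21e-05, quasi-likelihood test of edgeR) and moved little without control replicate 10, to -0.54. Ndufaf6, which is needed for the assembly of complex I, had 6.61 to 11.6 CPM in FFD (median 9.45) and 11.5 to 35.6 CPM in control (median 12.9). In 11 of the 12 FFD libraries it was below the lowest control, the only overlap being between 1 FFD library and that control. Its log2 fold change was -0.73 (SE 0.16, adjusted p = 0.000613, same test in edgeR), and -0.56 (adjusted p = 0.000111, same test in edgeR) without control replicate 10. Of the other 6 Ndufaf genes, Ndufaf8 was lower (-0.40, adjusted p = 0.0396, same test in edgeR), a call lost without control replicate 10 (-0.23, adjusted p = 0.0662), and 5 had adjusted p-values of 0.14 or more, among them Ndufaf7 at 0.01. Of the Sdhaf genes, Sdhaf3 (-0.42) and Sdhaf2 (-0.29) were lower at adjusted p of 0.00505 and 0.00435 in the same edgeR test, in both cases also without control replicate 10.

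Promoter sequence was read for the 250 bases upstream of the RefSeq start site (GRCm38.p6), which was listed for 79 of the 97 genes. The binding letters of NRF1, a factor known for its sites at respiratory chain genes, were searched as GCGC, any base and TGCGC in a row, those of ETS factors such as GABPA as CCGGAAG, and those of ERRα as TCAAGGTCA, each on both strands. A gene could match more than 1 of these motifs. The NRF1 letters were present in 14 of the 79 promoters (17.7%), against 4.23% of 27025 genes. The ETS letters were present in 16 (20.3%, against 7.83%), and the ERRα letters in 1 (1.27%, against 0.422%), that of Atp5g3. The 79 promoters also had a higher GC content (median 57.2%, against 52.4%), which was not taken into account. Sequences are shown for the 2 genes lower in every fit for which a promoter was listed (Sdhd and Ndufaf4), for Cox6a1, whose promoter has 2 NRF1 matches, and for the muscle paralog Cox7a1, with NRF1 or ETS letters in capitals and each read 5′ to 3′ on the strand of the gene, ending at the base before the start site.
Sdhd, chr9:50603850-50604099, minus strand: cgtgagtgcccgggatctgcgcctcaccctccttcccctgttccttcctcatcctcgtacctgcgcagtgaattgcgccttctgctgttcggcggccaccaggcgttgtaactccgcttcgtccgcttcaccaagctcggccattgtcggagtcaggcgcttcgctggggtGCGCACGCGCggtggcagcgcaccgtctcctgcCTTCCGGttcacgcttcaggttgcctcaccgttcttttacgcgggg
Ndufaf4, chr4:24897833-24898082, plus strand: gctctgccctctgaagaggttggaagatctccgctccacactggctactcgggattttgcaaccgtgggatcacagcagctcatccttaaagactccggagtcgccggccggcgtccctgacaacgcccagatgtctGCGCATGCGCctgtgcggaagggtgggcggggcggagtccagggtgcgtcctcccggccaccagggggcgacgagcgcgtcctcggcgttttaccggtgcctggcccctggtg
Cox6a1, chr5:115348959-115349208, minus strand: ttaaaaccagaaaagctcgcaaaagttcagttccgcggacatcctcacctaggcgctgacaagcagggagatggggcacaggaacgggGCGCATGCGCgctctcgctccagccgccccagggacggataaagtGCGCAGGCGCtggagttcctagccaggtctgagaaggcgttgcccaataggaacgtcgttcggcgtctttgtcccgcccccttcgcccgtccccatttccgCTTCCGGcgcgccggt
Cox7a1, chr7:30183921-30184170, plus strand: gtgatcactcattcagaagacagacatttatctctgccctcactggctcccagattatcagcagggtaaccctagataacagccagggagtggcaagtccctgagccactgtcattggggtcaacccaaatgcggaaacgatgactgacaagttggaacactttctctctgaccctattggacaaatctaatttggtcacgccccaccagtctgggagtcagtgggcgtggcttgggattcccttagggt
Sdhd holds both an NRF1 and an ETS match, Ndufaf4 holds an NRF1 match, and Cox7a1 holds none of the 3. Cox7a2, the abundant partner of Cox7a1, holds none either. Of 65 subunits other than the scarce paralogs, 13 (20.0%) had an NRF1 match and 12 (18.5%) an ETS match, so most had no match to a given motif. A match describes the letters only, and binding was not measured in these samples.

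The known regulators of these genes were measured in the same fit. Ppargc1a, the coactivator that drives mitochondrial gene expression, had 2.75 to 13.4 CPM in FFD (median 5.94) and 3.77 to 18.0 CPM in control (median 9.21), a log2 fold change of -0.80 (SE 0.24, adjusted p = 0.00888, quasi-likelihood test of edgeR). Gabpa, the ETS factor, had 20.7 to 37.9 CPM in FFD (median 27.7) and 24.4 to 49.7 CPM in control (median 40.6), a log2 fold change of -0.53 (SE 0.11). Tfam, which maintains and transcribes mitochondrial DNA, had 26.8 to 41.9 CPM in FFD (median 34.0) and 39.6 to 52.4 CPM in control (median 44.2), a log2 fold change of -0.38 (SE 0.07). Ppargc1b (-0.67) and Esrra (-0.35) were also lower, so that 5 of the 6 passed an adjusted p of 0.05, and Nrf1 (-0.12, adjusted p = 0.345, same test in edgeR) did not. Without control replicate 10 the same 5 passed, with log2 fold changes from -0.88 to -0.26. With library totals none of the 6 passed, and Nrf1 was at 0.19.

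Other parts of the mitochondrial machinery were counted from lists, at an adjusted p up to 0.05, where 18.9% of all genes were lower and 20.7% higher (20.0% and 21.5% without control replicate 10). Among 7 respiratory chain genes outside the symbol rule, 5 were lower, with values from -0.82 for Dmac2 to -0.26 for Cyc1, and 4 were lower without control replicate 10. The 13 protein-coding genes of the mitochondrial genome had a median of -0.22, with 5 lower (mt-Nd3, mt-Nd5, mt-Nd6, mt-Co2 and mt-Co3), and here leaving out control replicate 10 raised the number lower to 9 (median -0.26). In that library 10 of the 13 mitochondrial genes were below the control median, and mt-Nd3, mt-Co2 and mt-Co3 were above it. mt-Nd4 was at 2684 CPM against a control median of 8052, while Ndufb9 was at 694 CPM against 140. Of 34 assembly factors not caught by the rule, 13 were lower and none higher (14 and 1 without that library), of 18 genes of the TCA cycle 5 were lower and 2 higher (7 and 2), and of 78 genes of the mitochondrial ribosome 24 were lower and none higher (20 and 4). Of 84 genes of the cytosolic ribosome, which serve as an abundant non-mitochondrial list of short transcripts, 18 (21.4%) were lower (10, or 11.9%, without that library), with a median of -0.36 (-0.16), beside -0.42 (-0.20) for the 97 genes. With library totals few genes were lower in any list. More were higher than lower only for the mitochondrial ribosome, the other assembly factors and the TCA cycle. Of the mitochondrial ribosome 2 were lower and 14 higher, of the other assembly factors 1 and 4, of the TCA cycle 1 and 6, of the mitochondrially encoded genes 0 and 0, of the genes outside the rule 1 and 0, and of the cytosolic ribosome 1 and 0 (4.16% and 37.8% of all genes).

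Control replicate 10 differed from the other controls by transcript length. For the 78 abundant subunits, the ratio of its CPM to the median of the other 11 controls had a median of 3.09 and ranged from 0.929 (Sdha) to 5.65, with 77 of the 78 above 1. For 51 subunits with a transcript under 1000 bases the median ratio was 3.36, and for the 27 longer ones it was 2.11. Across these 78 genes, which share the library and its depth, the log2 ratio had a Pearson correlation of -0.73 with log10 length. The same was seen in all expressed genes. The deviation of a gene was its log2 level minus its mean over all libraries other than control replicate 10. Genes with a transcript under 1000 bases had a median deviation of 1.09 in control replicate 10. The value was 0.34 in control replicate 4 and at most 0.15 in any other library. Genes with a transcript over 3000 bases had a median deviation of -0.36 in control replicate 10. Removing each library's trend with transcript length left a median of -0.20 for the 97 genes, with 51 lower and 3 higher at an adjusted p up to 0.05 (18.1% and 23.6% of the genes with a length) and 4 lower and 2 higher at the thresholds of the study (4.18% and 14.6%). Across subunits, the fold change correlated with log10 length with all libraries (Pearson 0.53) and less so without control replicate 10 (0.16).

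**Figure D4:**
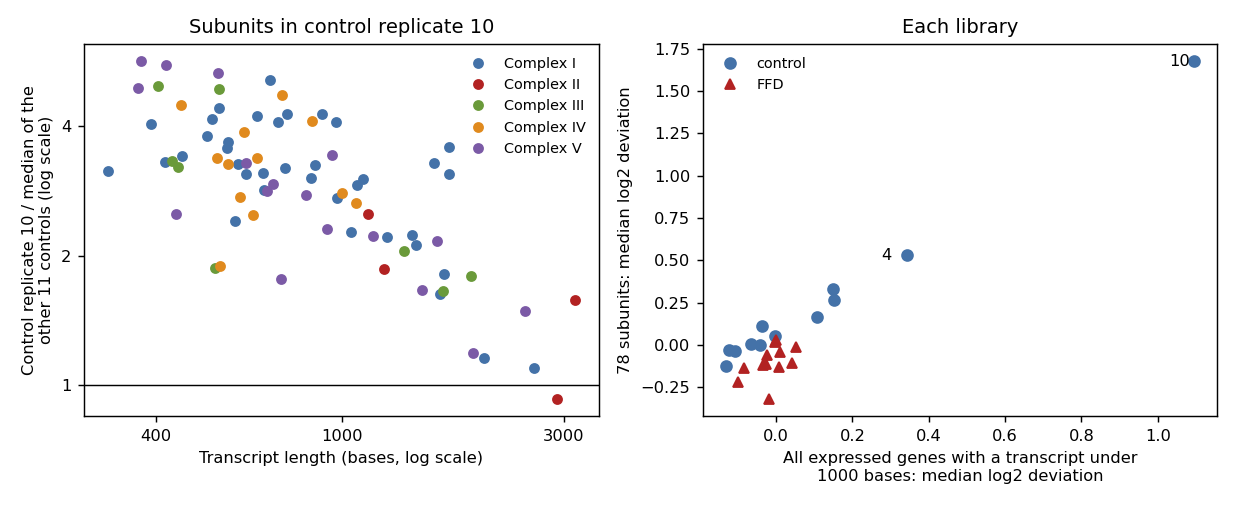
Left, the ratio of the CPM in control replicate 10 to the median of the other 11 controls (log axis) against transcript length in bases (log axis) for 78 abundant subunits, coloured by complex. The points fall from about 5 at the short end to near 1 for the longest transcripts. Right, the median log2 deviation of the same subunits in each library against that of all expressed genes with a transcript under 1000 bases, where control replicate 10 lies at 1.09 and 1.68 and control replicate 4 at 0.34 and 0.53.

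Subunits moved together from library to library within a diet. Over all 3003 pairs of the 78 abundant subunits, the median Pearson correlation of log2 CPM was 0.54 across the 12 FFD libraries, 0.95 across the 12 control libraries and 0.79 across 11 controls without replicate 10. These are descriptions, since the genes share libraries, depth and the length effect given above.

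**Figure D5:**
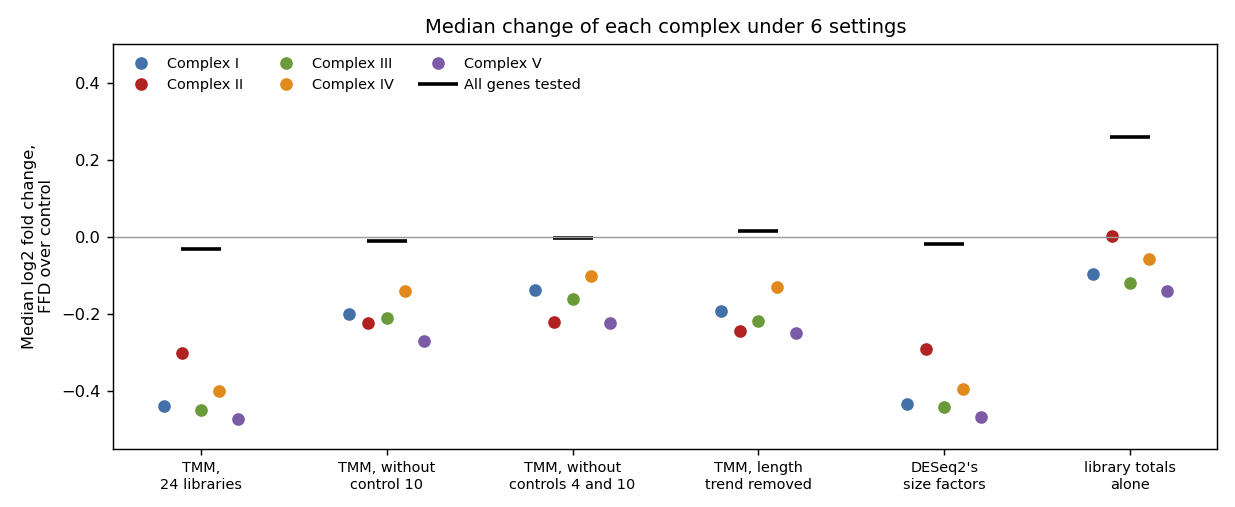
Median log2 fold change (FFD over control) of the subunit genes of each complex (coloured points) and of all genes tested (black bars) under 6 settings on the horizontal axis. The points of complexes I to V lie below the bar in every setting, at -0.47 to -0.30 with TMM and 24 libraries, at -0.27 to -0.14 without control replicate 10, and at -0.14 to 0.002 with library totals, where the bar is at 0.26.

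Markers of the cell types of the liver also differed between the diets. All 7 hepatocyte markers were lower in FFD (median log2 fold change -0.74, summed level 38260 to 91380 CPM against 85860 to 132900 CPM), while Alb remained the most abundant of them in every group. All 6 markers of monocyte-derived macrophages (median 2.80, summed level 123 to 946 CPM against 45.0 to 161 CPM) were higher, as were 5 of 6 of activated stellate cells or myofibroblasts (median 2.76, 135 to 503 CPM against 28.6 to 171 CPM) and 3 of 4 of cholangiocytes (median 2.51, 5.28 to 151 CPM against 4.78 to 14 CPM). The hepatocyte markers thus fell by more than the median of the 97 genes. Without control replicate 10 the numbers called were 7 of 7, 6 of 6, 6 of 6 and 3 of 4. The part of these cells in the result was not tested.

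Within the sets of libraries split by Xist, fewer genes passed. In the 12 libraries with Xist above 1000 counts, 7 of the 97 were lower at an adjusted p up to 0.05 (5.16% of all genes were), namely Sdhd, Ndufaf4, Ndufaf6, Ndufb5, Ndufb10, Ndufb11 and Cox7a2l, and none was higher (8.32% of all genes were), with a median of -0.18. None was called in either direction at the thresholds of the study there (0.882% of all genes lower and 2.9% higher). In the 12 with Xist below 1000 counts, 31 were lower (16.9% of all genes) and 1 higher (20.9%), with a median of -0.60, and without control replicate 10 these were 43 (21.1%) and 1 (23.4%), with a median of -0.19. At the thresholds of the study, 3 were lower and 1 higher there (7.99% and 14.4%), or 2 and 1 without that library (9.47% and 14.9%). The difference between the sets was tested as an interaction of diet and set. It passed an adjusted p of 0.05 for 1 of the 97 genes, Ndufs6b, whose counts were at most 4 in any library, with and without control replicate 10. Of all genes, 4.04% passed with a more negative and 6.19% with a more positive fold change below 1000 counts (5.76% and 6.79% without that library). With the set as a covariate, 55 genes were lower and 3 higher (20.4% and 21.5% of all genes), and 9 lower and 1 higher at the thresholds of the study (5.92% and 13.5%).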

How the data were processed

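Whole livers of C57BL/6J mice (12 libraries per diet) were measured by poly(A) RNA-seq. The deposited table gives raw read counts by Ensembl gene, as whole numbers that the authors did not normalize. The submitters' processing notes name bcl2fastq, STAR 2.7.3a and mm10. The annotation, the counting program and the treatment of strand are not given in the sources used here. Symbols and transcript lengths (median of the principal transcripts) came from GENCODE M21, which lacks 4460 of the IDs, holding 0.0723% of the counts. Depth was 14468418 to 22112552 counts per library, and counting error dominates for genes with a few counts.

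The genes described, the lists and the tests were chosen with earlier results of these data known. Libraries were scaled by TMM in edgeR 4.0.16 (R 4.3.3), genes with a count in 12 or more libraries were kept, and a quasi-likelihood fit with diet as the sole term was adjusted by Benjamini-Hochberg. The SE is the log2 fold change divided by the root of F. Calls used the study's thresholds (0.01 and 0.5) or 0.05 without a fold threshold. The procedure was tested on simulated counts. These held no outlying library and no trend with transcript length, so they do not bear on those features. All rule members could be named. Full values were planned for core subunits, isoform pairs, members called at the study's thresholds, the highest and lowest subunit of each complex, and 6 regulators. Not all of their levels are printed. Cox7a2l, Ndufa10, Uqcrq, Ndufaf7, Ndufaf8, Sdhaf2, Sdhaf3 and the list examples were named after their values were seen. Marker lists also held stellate cells (2 of 5 higher), resident macrophages (1 of 5 higher), T cells (0 of 5), B cells (0 of 4), sinusoidal endothelial cells (1 of 4 higher, 2 lower) and brown or beige fat (0 of 2 tested higher, 1 lower, Ppargc1a).

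Alternatives were DESeq2 1.42.0, limma-voom 3.58.1, DESeq2's size factors, library totals, other filters and thresholds, the replicate number as a block, the Xist sets, removal of the length trend and each library left out. Those without control replicates 4 and 10, and those without control replicate 10 in the Xist sets and the interaction, were added after seeing the data.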

Additional observations from a re-analysis of the deposited data

Results flagged for a closer look

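For Ndufs6b, a scarce copy of a complex I subunit gene annotated as a processed pseudogene, the fitted interaction of diet and Xist set (below minus above 1000 counts) was -5.29 on the log2 scale and passed an adjusted p of 0.05 in edgeR's quasi-likelihood test over all genes. The gene had 0 to 4 counts in each FFD library and 0 to 4 in each control library, and none in any of the 6 control libraries with Xist above 1000 counts. The interaction therefore compares with a group at 0, and its fitted size is neither a measured fold nor a bound.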

How the results depend on the processing

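The median of the 97 genes lay below that of all genes in each of 13 fits, but its size and the number of calls depend on control replicate 10 and on scaling. Leaving out 1 library at a time gave 3 (without control replicate 10) to 16 (without control replicate 1) of the 97 lower at the thresholds of the study. By the same rule 1 to 2 were higher. At an adjusted p of 0.05, 41 to 64 were lower and 2 to 4 higher (18.9% and 20.7% of all genes with 24 libraries). Over all 17913 genes, the same omissions gave 700 to 995 lower and 2188 to 2468 higher at the thresholds of the study. The medians then ranged from -0.48 to -0.20 for complex I, -0.32 to -0.22 for II, -0.48 to -0.21 for III, -0.44 to -0.14 for IV and -0.51 to -0.27 for V, each nearest to 0 without control replicate 10. The causes of these shifts were not tested.

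With library totals, 3827 genes were higher and 226 lower at the thresholds of the study. Among the 97, 3 were higher and 0 lower, or 10 and 3 at an adjusted p of 0.05. Medians of complexes I to V were -0.10, 0.0024, -0.12, -0.057 and -0.14. Values became positive for Ndufs1 (0.10), Ndufv1 (0.11), Sdha (0.10), Sdhc (0.19), Uqcrc1 (0.089), Uqcrfs1 (0.0020), Cox5a (0.060), Cox8a (0.077), Atp5a1 (0.051), Atp5b (0.15), Atp5g2 (0.069) and Nrf1 (0.19). With the length trend removed, 2 of the 97 were higher and 4 lower, the medians of complexes I, III, IV and V were -0.19, -0.22, -0.13 and -0.25, and Atp5g2 stood at 0.011. Where Xist was above 1000 counts, 520 genes were higher and 158 lower, 0 and 0 of the 97 at the thresholds of the study, 0 and 7 at an adjusted p of 0.05, with medians of -0.18, -0.041, -0.18, -0.15 and -0.24. Sdha (0.014) and Sdhc (0.0077) were positive there. Within those below 1000 counts, 1431 genes were lower, 3 of the 97 were lower at the thresholds of the study, 31 lower and 1 higher at an adjusted p of 0.05, and the medians of complexes I and II were -0.65 and -0.53, with Nrf1 at 0.020 and Ndufs6b at -1.44. Without control replicate 10 these libraries gave 1697 genes lower, 2 of the 97 lower at the thresholds of the study and 1 higher at an adjusted p of 0.05, medians of -0.18, -0.24, -0.10 and -0.27 for complexes I, III, IV and V, Nrf1 at 0.17 and Ndufs6b at -1.11. Leaving out 1 library at a time moved Ndufs6b from -0.12 to 0.61, below 0 without FFD replicate 1 (-0.014) or 6 (-0.12). Without control replicates 4 and 10, 1 of the 97 was lower at the thresholds of the study, with medians of -0.14, -0.16, -0.10 and -0.22 for complexes I, III, IV and V.

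A fold threshold of 1 left 216 genes lower and 0 of the 97, and dropping the fold threshold gave 1961 and 18. edgeR's default filter and a minimum of 10 counts in each library left 0 of the 97 higher at the thresholds of the study and 1 at an adjusted p of 0.05, and the second left 1230 genes higher. limma-voom gave 5 lower at the thresholds of the study and 1 higher at an adjusted p of 0.05. The mean over complex IV was 0.016. Other settings kept counts within 1.5 times, and the same 5 of 8 isoform pairs passed in each, while Cox6b2 over Cox6b1 also passed without FFD replicate 12 (adjusted p = 0.04, permutation test, with ratios of 0.52 to 0.90 over the libraries left out).

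Samples share replicate numbers, but the correlation of their deviations from the group means was 0.17 to 0.60 for 11 of the 12 numbers and -0.06 for number 9. The labels name no shared animal, litter or batch behind a number, so the numbers were treated as names. Of the 24 samples, 6 correlated best with the sample of their own number in the other diet. Samples of the same number also fell in the same Xist set, which these correlations did not take into account. The replicate block gave 5 genes lower at the thresholds of the study, and 40 lower and 1 higher at an adjusted p of 0.05.

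Counts of 0 to 14 per library limit Cox4i2, Cox6a2, Cox8b and Ndufs6b, and for abundant subunits the spread between controls, not depth, sets the error.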

Other observations

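Genes of the TCA cycle changed in both directions. Idh2, the mitochondrial NADP-dependent isocitrate dehydrogenase, was higher in FFD (log2 fold change 0.80, adjusted p = 9.56e-05, quasi-likelihood test of edgeR), as was Suclg2, the GTP-forming subunit of succinyl-CoA ligase (0.32, adjusted p = 0.00723, same test in edgeR). Fh1, fumarase, was lower (-0.60, adjusted p = 0.00084, same test in edgeR), as was Idh3a of the NAD-dependent enzyme (-0.39, adjusted p = 0.00117, same test in edgeR). All 4 also passed without control replicate 10.

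Ndufb1-ps, excluded by its symbol, was counted in all 24 libraries, at 14.5 to 21.4 CPM in FFD (median 17.2) and 15.1 to 89.1 CPM in control (median 19.8), with the highest value again in control replicate 10. Its log2 fold change was -0.61 with all libraries and -0.27 without that one (adjusted p = 0.0311 and 0.0461, quasi-likelihood test of edgeR).

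Dmac2, an assembly component of the distal membrane arm of complex I, lies outside the symbol rule and had 23.5 to 39.6 CPM in FFD (median 28.8) and 36.0 to 78.2 CPM in control (median 53.9), overlapping only slightly. Its log2 fold change was -0.82 (-0.75 without control replicate 10), further from 0 than that of any of the 97 genes that were lower.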
